A study of Mus musculus with 6 samples.

Results

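The suppressor of cytokine signalling (SOCS) family was examined in RNA-sequencing libraries of sorted regulatory T (Treg) cells that had or lacked O-GlcNAc transferase (OGT), the enzyme that adds O-GlcNAc to intracellular proteins. The family was taken by name as *Cish*, which encodes CIS, and *Socs1* to *Socs7*. All 8 genes were among the 24420 genes of the deposited table, and all 8 were among the 10949 genes with enough counts to be tested. YFP+ Treg cells came from lymph nodes of female C57BL/6 mice, with 3 samples of genotype Foxp3YFP-Cre/wt Ogtwt/fl (OGT-sufficient) and 3 of genotype Foxp3YFP-Cre/wt Ogtfl/fl (OGT-deficient). The comparison asks how the Treg cell transcriptome depends on OGT in females, of which the Ogtfl/fl group was described as healthy. The mice other than the male knockouts were generally 6 to 12 weeks old, and no age was given for these females alone. All 6 samples carried the YFP-Cre fusion at the endogenous *Foxp3* locus on one X chromosome and at least 1 floxed *Ogt* allele, so the control cells were not free of Cre or of the floxed allele. Random X inactivation leaves Cre active in a part of the Treg cells, and YFP marks that part. Whether the floxed allele of the Ogtwt/fl mice lay on the X chromosome with Cre was not given in the sources used here, and these cells are called OGT-sufficient as the study names them. The labels do not say that every sample was a single mouse, and the p-values measure the spread between these samples.

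SOCS proteins form a negative feedback loop of cytokine signalling. A cytokine receptor activates Janus kinases (JAKs), these phosphorylate STAT transcription factors, and STATs switch on *Cish*, *Socs1*, *Socs2* and *Socs3*. Each SOCS protein binds phosphotyrosine with an SH2 domain and carries a SOCS box, which recruits elongins B and C and cullin 5 to a ubiquitin ligase. SOCS1 and SOCS3 also inhibit JAKs directly through a kinase inhibitory region, and CIS occupies docking sites for STAT5 on receptors such as the IL-2 receptor. SOCS4 to SOCS7 depend less on cytokines for their expression and are known mainly from receptor tyrosine kinase signalling. In Treg cells, which need IL-2 and STAT5, SOCS1 limits the response to interferon-γ. The study used *Socs1* and *Socs3* as readouts of STAT5 activity in other experiments. A constitutively active STAT5A raised both transcripts in OGT-sufficient Treg cells, and a form deficient in O-GlcNAc diminished this effect. Blocking the removal of O-GlcNAc with Thiamet-G also raised both in mouse Treg cells. From the RNA sequencing the study predicted IL-2 to be an inhibited upstream regulator, and it reported lower expression of many STAT5 targets without OGT.

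RefSeq promoter windows (GRCm38.p6, the same assembly as the mm10 build in the submitters' processing notes) were matched for 4 of the 8 members, *Cish*, *Socs1*, *Socs3* and *Socs4*. They were searched on both strands for TTCNNNGAA, the spacing that STAT5 prefers, from 250 bases before to 50 bases after a RefSeq transcript start. Of all 32851 windows of 300 bases, 8.30% held this motif and 0.457% held it 2 or more times. The windows of 3 members are printed 5′ to 3′ up to base 30 after the start, because these genes are the cytokine-induced ones that the RNA comparison below is about, and capitals mark TTCNNNGAA.
Cish: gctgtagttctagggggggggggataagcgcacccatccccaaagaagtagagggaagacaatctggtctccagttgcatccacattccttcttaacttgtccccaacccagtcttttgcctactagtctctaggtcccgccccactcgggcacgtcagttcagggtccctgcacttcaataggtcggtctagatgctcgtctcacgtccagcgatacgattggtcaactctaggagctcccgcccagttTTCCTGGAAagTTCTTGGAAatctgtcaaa
Socs3: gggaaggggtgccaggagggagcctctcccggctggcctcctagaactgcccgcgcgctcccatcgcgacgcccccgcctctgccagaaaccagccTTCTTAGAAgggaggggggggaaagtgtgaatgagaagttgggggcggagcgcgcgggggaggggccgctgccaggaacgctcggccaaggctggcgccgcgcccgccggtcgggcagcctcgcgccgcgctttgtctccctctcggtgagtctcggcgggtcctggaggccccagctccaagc
Socs1: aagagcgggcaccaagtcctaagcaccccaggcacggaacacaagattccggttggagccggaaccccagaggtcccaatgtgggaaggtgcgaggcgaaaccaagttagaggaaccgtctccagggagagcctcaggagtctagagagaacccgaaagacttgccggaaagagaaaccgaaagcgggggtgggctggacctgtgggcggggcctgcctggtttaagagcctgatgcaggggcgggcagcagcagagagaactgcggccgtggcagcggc
The printed *Cish* window lies at chr9:107296409-107296688 on the plus strand. It held the motif 2 times, at bases 1 to 9 and 12 to 20 counted from the transcript start as base 1. The first match, TTCCTGGAA, also fits TTCCNGGAA, which overlaps TTCNNNGAA and was found in 1.15% of all windows. The *Socs3* window, at chr11:117969337-117969616 on the minus strand, held 1 match, TTCTTAGAA, at bases -154 to -146. This window belongs to a start inside the gene, whose RefSeq 5′ boundary is base 117970336. The windows of *Cish*, *Socs1* and *Socs4* span the RefSeq 5′ boundary of their gene, so that of *Socs3* is not like them. GENCODE M21 starts *Cish* further upstream, at base 107296026, so in that annotation the *Cish* window also lies inside its gene. The *Socs1* window, at chr16:10785507-10785786 on the minus strand, did not hold these letters, and neither did that of *Socs4*. A letter match is a description of the window and was not tested for binding. The G+C content of the printed windows was 53.2% for *Cish*, 62.1% for *Socs1* and 72.1% for *Socs3*.

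Total counts per sample ranged from 3375454 to 4103552, of which *Rn45s*, a ribosomal RNA gene, took 24.2% to 37.1%. OGT-sufficient replicate 3 stood apart, with 18346 genes detected against 14412 to 15197 in the other samples. The summed level of 6 B-cell markers was 309 CPM (counts relative to the TMM-scaled library size, the unit of all levels here) there, against 85.4 to 147 CPM in the other samples. For 4 neutrophil markers it was 138 CPM, against 6.71 to 28.3 CPM elsewhere, and for 4 erythroid markers 838 CPM, against 212 to 472 CPM. The 7 Treg markers, which include *Foxp3*, *Il2ra* and *Cd4*, were all detected in every sample and summed to 1997 CPM in that sample and to 2643 to 2966 CPM in the other 5. Markers of macrophages were also high, and 10 of 10 were detected in every sample. Their summed level ranged from 1712 to 3623 CPM in OGT-sufficient and from 1246 to 5226 CPM in OGT-deficient samples. Fewer cells of a type and less RNA per cell cannot be told apart in such bulk samples. The targeted gene *Ogt* had 562, 632 and 957 counts in OGT-sufficient against 327, 266 and 368 in OGT-deficient Treg cells, or -1.21 on the log2 scale (standard error 0.21) without overlap between the groups. With edgeR's quasi-likelihood test the adjusted p came to 0.191, and the exact permutation test of the 6 samples gave a two-sided p of 0.1, the smallest it can give.

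The cytokine-induced members had higher mean levels in OGT-deficient Treg cells, clearest for *Socs2* and *Cish*, and the means of the others were near those of OGT-sufficient cells. The means of *Cish*, *Socs1*, *Socs2* and *Socs3* were all higher (4 of 4), with a median log2 fold change of 0.48. Over all genes tested, 47.3% had a log2 fold change above 0. All 4 genes were lowest in OGT-sufficient replicate 3, so they are not 4 separate observations. For *Socs4* to *Socs7* the median was 0.06, with 2 means higher and 2 lower, while the median over all genes tested was -0.02. At an unadjusted p under 0.05, *Cish* and *Socs2* were higher, which is 2 of the 8 members, and no member was lower. Over all genes tested, 7.10% passed this threshold in either direction and 3.09% in the higher direction. No member passed an FDR of 0.1 over all genes in edgeR's quasi-likelihood test, where 0.0274% of genes did. In DESeq2 and in edgeR's exact test 1 member passed it, *Socs2*. These tests passed more genes, 38 in DESeq2 and 80 in the exact test against 3 in the quasi-likelihood test. There was no overlap between groups for *Cish* and *Socs2*, with every OGT-deficient sample higher, a pattern that 5.72% of the genes tested showed in this direction and 7.48% in the other. Scaled to library size only, the genes at an unadjusted p under 0.05 were split into 210 higher and 434 lower, against 338 and 439 with the reported scaling. *Cish* and *Socs2* were among the higher ones under either scaling.

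**Figure D1:**
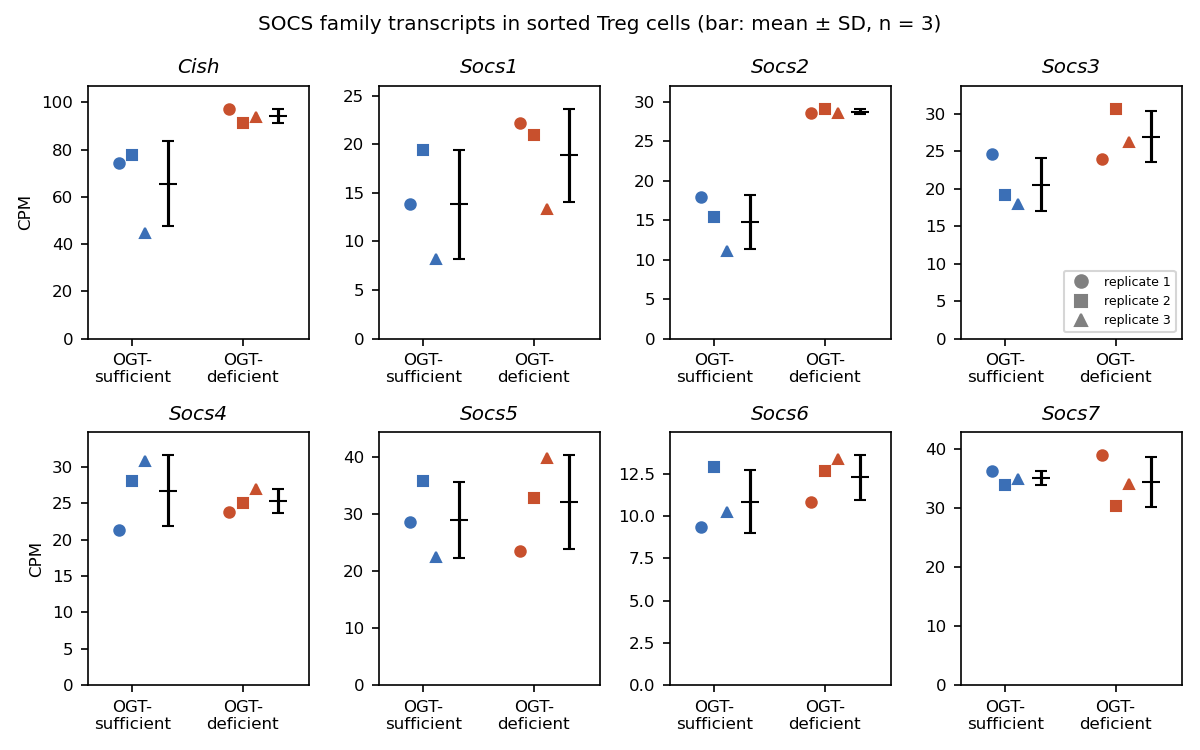
Level of each SOCS family transcript in CPM (linear axis from 0) in 3 OGT-sufficient (blue) and 3 OGT-deficient (orange) samples of Treg cells, with the mean and SD beside each group. The groups are apart for *Cish* (44.8 to 77.6 against 91.3 to 97.3 CPM) and *Socs2* (11.1 to 17.9 against 28.6 to 29.1 CPM) and overlap for the other 6 members.

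*Socs2*, whose product restrains growth hormone and other cytokine receptors, showed the largest difference of the family. It lies on chromosome 10 from base 95385362 to 95417180 on the minus strand (GENCODE M21). Its counts were 67, 57 and 42 for OGT-sufficient replicates 1 to 3, in that order, compared with 111, 115 and 109 for OGT-deficient replicates 1 to 3. Every OGT-deficient sample was above every OGT-sufficient one, and the OGT-deficient samples lay close together. The group means were 14.8 ± 3.46 CPM (SD, n = 3) for OGT-sufficient and 28.8 ± 0.288 CPM (SD, n = 3) for OGT-deficient Treg cells. This is a 1.95-fold difference, or 0.96 on the log2 scale (standard error 0.19). The unadjusted p of 8.2e-04 was the 40th lowest of the 10949 genes, and the adjusted p was 0.224 (edgeR's quasi-likelihood test). Over the 14 alternative settings the log2 fold change stayed between 0.80 and 1.16, all 14 gave an unadjusted p under 0.05, and the adjusted p ranged from 0.0082 to 0.860. Without OGT-sufficient replicate 3, the sample that stood apart, the log2 fold change was 0.80.

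*Cish* was the most abundant member. Its product CIS is the classical feedback inhibitor induced by IL-2 and STAT5. The gene lies on chromosome 9 from base 107296026 to 107302784 on the plus strand. It had 279, 288 and 170 counts in the OGT-sufficient replicates and 377, 361 and 358 in the OGT-deficient ones. OGT-sufficient replicate 3 was the lowest sample, and the OGT-deficient samples were all higher than any OGT-sufficient one. Its level was 65.6 ± 18.1 CPM (SD, n = 3) against 94.1 ± 2.97 CPM (SD, n = 3), a 1.43-fold difference. The log2 fold change was 0.52 (standard error 0.19), with an unadjusted p of 0.0253 and an adjusted p of 0.627 by edgeR's quasi-likelihood test. The low value of OGT-sufficient replicate 3 carried part of this. Without that sample the log2 fold change was 0.32, with an unadjusted p of 0.0188 and an adjusted p of 0.649 (edgeR's quasi-likelihood test). Without OGT-deficient replicate 1 the unadjusted p was 0.0516 (edgeR's quasi-likelihood test), the only one of 14 alternative settings above 0.05. Exons of *Cish* share 479 bases with the antisense gene *Gm17041* and 261 bases with the pseudogene *Gm17040*, both on the opposite strand. Strand was not stated for the counting, so reads of these genes cannot be told apart there.

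*Socs1* and *Socs3*, the direct JAK inhibitors, had higher means in OGT-deficient Treg cells within the spread between samples. The opposite direction was seen in the paper's treated or transduced Treg cells, where more O-GlcNAc went with higher levels of both genes. *Socs1* lies on chromosome 16 from base 10782240 to 10785536 on the minus strand. It had 52, 72 and 31 counts in the OGT-sufficient and 86, 83 and 51 in the OGT-deficient replicates. OGT-deficient replicate 3 fell within the OGT-sufficient range, so the groups overlapped. Its level was 13.8 ± 5.62 CPM (SD, n = 3) against 18.8 ± 4.79 CPM (SD, n = 3). The log2 fold change of 0.45 (standard error 0.32) had an unadjusted p of 0.192 and an adjusted p of 0.790 (edgeR's quasi-likelihood test). It ranged from 0.19 without OGT-sufficient replicate 3 to 0.81 without OGT-sufficient replicate 2. Counting error alone is wide at this depth, since the 95% exact Poisson interval of the lowest count, 31, runs from 21.1 to 44.0.

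*Socs3* lies on chromosome 11 from base 117966079 to 117970047 on the minus strand, and SOCS3 binds the shared receptor chain gp130 to restrain IL-6 signalling. It had 92, 71 and 68 counts in the OGT-sufficient and 93, 121 and 100 in the OGT-deficient replicates. Relative to library size, OGT-deficient replicate 1 (24.0 CPM) fell just below OGT-sufficient replicate 1 (24.6 CPM), and the other OGT-deficient samples were above all OGT-sufficient ones. The level was 20.5 ± 3.56 CPM (SD, n = 3) against 26.9 ± 3.37 CPM (SD, n = 3). Its log2 fold change was 0.39 (standard error 0.18), with an unadjusted p of 0.0595 and an adjusted p of 0.707 (edgeR's quasi-likelihood test). The unadjusted p was under 0.05 in 3 of 14 alternative settings. The summed macrophage markers were also lowest in OGT-deficient replicate 1 of that group (1246 CPM, against 4390 and 5226 CPM in OGT-deficient replicates 2 and 3), and their part in the level of *Socs3* was not tested. *Cish* was at 97.3 CPM and *Socs2* at 28.6 CPM in that same sample, beside 91.3 and 93.8 CPM for *Cish* and 29.1 and 28.6 CPM for *Socs2* in the other OGT-deficient samples. The part of macrophage RNA in the levels of *Cish* and *Socs2* was not tested either.

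The members outside the cytokine-induced group differed by less than the spread between samples. *Socs4* (chromosome 14, base 47276931 to 47296102, plus strand), which acts on the epidermal growth factor receptor, had 80, 104 and 117 counts in the OGT-sufficient and 92, 99 and 103 in the OGT-deficient replicates. Its log2 fold change was -0.08 (standard error 0.17), and it was 0.04 without OGT-sufficient replicate 3, where it was highest. *Socs5* (chromosome 17, base 87107679 to 87137839, plus strand), linked to the same receptor and to IL-4 signalling, had 107, 133 and 85 against 91, 130 and 152 counts. For *Socs5* it was 0.15 (standard error 0.23), with the widest OGT-deficient range of these 4 genes (23.5 to 39.8 CPM). *Socs6* (chromosome 18, base 88665224 to 88927481, minus strand), an inhibitor of KIT and insulin receptor signalling, was the lowest member, with 35, 48 and 39 against 42, 50 and 51 counts. *Socs7* (chromosome 11, base 97362551 to 97398542, plus strand), also linked to insulin signalling, had 136, 126 and 133 against 151, 120 and 130 counts. Log2 fold changes were 0.18 (standard error 0.21) for *Socs6* and -0.03 (standard error 0.14) for *Socs7*. Without OGT-sufficient replicate 2, *Socs6* was at 0.36. In all 4 genes the groups overlapped, and edgeR's quasi-likelihood test gave 0.423 as the lowest unadjusted p. The standard errors allow differences of the size seen for *Socs3* in some of these genes. A smaller change was therefore not detectable with these counts and the spread between 3 samples per group.

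**Figure D2:**
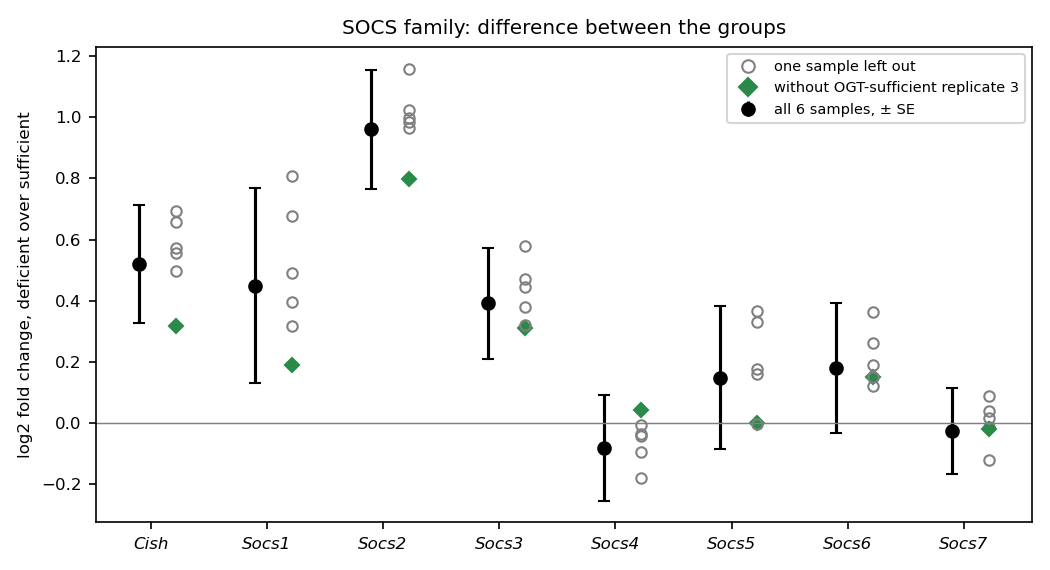
Log2 fold change (OGT-deficient over OGT-sufficient, edgeR's quasi-likelihood fit) of the 8 members with its standard error (black), and the value with each of the 6 samples left out in turn (open circles), the green diamond marking the fit without OGT-sufficient replicate 3. *Cish*, *Socs1*, *Socs2* and *Socs3* stay above 0 in each fit, and the diamond is the lowest value of each of them (0.32, 0.19, 0.80 and 0.31).

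A ratio within each sample needs no scaling between libraries. The summed counts of *Cish* and *Socs1* to *Socs3* over those of *Socs4* to *Socs7* gave 1.37, 1.19 and 0.832 for the OGT-sufficient replicates in order. For the OGT-deficient replicates the ratio was 1.77, 1.70 and 1.42. All OGT-deficient samples were above all OGT-sufficient ones, though replicate 3 of the former was close to replicate 1 of the latter. *Cish* gives most of the counts in the numerator, so this ratio follows *Cish* more than the other genes. The summed level of the first 4 genes was 115 ± 28.5 CPM (SD, n = 3) against 169 ± 5.83 CPM (SD, n = 3), and that of the last 4 was 102 ± 8.01 CPM against 104 ± 9.04 CPM (SD, n = 3 each).

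Because the Treg markers were lowest in OGT-sufficient replicate 3, the members were also expressed per 1000 CPM of these 7 markers, a choice made after seeing the data. *Cish* then stood at 28.2, 26.2 and 22.4 in the OGT-sufficient and 33.0, 33.7 and 34.5 in the OGT-deficient replicates. *Socs2* stood at 6.77, 5.18 and 5.54 against 9.73, 10.7 and 10.5. For these genes the groups again did not overlap, and the ratio of the group means was 1.32 for *Cish* and 1.77 for *Socs2*, compared with 1.43 and 1.95 in CPM. *Socs1* (ratio 1.27) and *Socs3* (1.18) overlapped on this scale as well. Of the 7 markers, *Il2ra* and *Foxp3* are themselves in the list of STAT5 targets below. *Il2ra* differed by 0.44 on the log2 scale (standard error 0.20, unadjusted p = 0.0579, edgeR's quasi-likelihood test) and *Foxp3* by 0.20 (standard error 0.17). Among the other markers *Tnfrsf18* had 0.57 (unadjusted p = 0.0439, edgeR's quasi-likelihood test), and *Ikzf2* alone was lower, at -0.26.

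**Figure D3:**
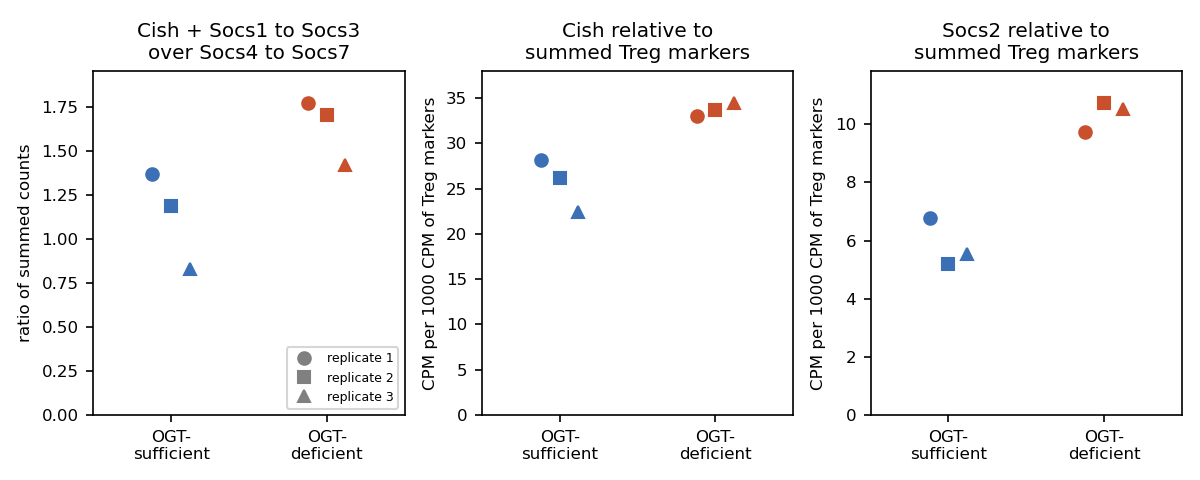
Values set within each sample (linear axes from 0): the ratio of summed counts of the 4 cytokine-induced members over the other 4, and *Cish* and *Socs2* in CPM per 1000 CPM of 7 summed Treg markers. Points are samples, and in each panel the 3 OGT-deficient samples lie above the 3 OGT-sufficient ones (lowest OGT-deficient ratio 1.42, highest OGT-sufficient ratio 1.37).

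Levels were compared between members only per kilobase of exon, taken as the union of all GENCODE M21 exons of a gene. In OGT-sufficient cells the order was *Cish* (10.2 ± 2.83 CPM per kb), *Socs3* (7.10 ± 1.23), *Socs7* (4.83 ± 0.165), *Socs1* (4.75 ± 1.93), *Socs5* (4.51 ± 1.05), *Socs4* (3.89 ± 0.704), *Socs2* (1.55 ± 0.363) and *Socs6* (0.956 ± 0.164), each ± SD with n = 3. The bands of 1 SD overlapped between *Cish* and *Socs3* and between each neighbouring pair from *Socs7* to *Socs4*, but not between *Socs7* and *Socs4* themselves. In OGT-deficient cells *Cish* (14.7 ± 0.463 CPM per kb) and *Socs3* (9.32 ± 1.17) were again highest, and *Socs2* (3.02 ± 0.0302) and *Socs6* (1.08 ± 0.115) lowest. *Socs6* and *Socs2* have the longest exon unions of the family, 11349 and 9531 bases over 15 and 13 exonic blocks, which lowers their level per kb if a shorter isoform is used.

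The 3 genes whose log2 CPM followed *Cish* most closely over the 6 samples were *Selplg*, a ligand of selectins (Pearson r = 0.996), the proteasome subunit gene *Psmc2* (0.993) and the G-protein subunit gene *Gnai3* (0.991). For *Socs1* they were *Eif6* (0.999), *Dpm3* (0.994) and *Ldha* (0.990), and for *Socs3* they were *Nip7* (0.988), *Mcoln3* (0.988) and *Lamtor2* (0.987). With 6 samples such values are common, since 334, 263 and 110 of the 10948 other genes had an r above 0.9 with *Cish*, *Socs1* and *Socs3*. These points share library, depth and genotype, and OGT-sufficient replicate 3 was the lowest sample of each of these 3 members. Within the family the same measure with *Cish* was 0.92 for *Socs2*, 0.84 for *Socs1* and 0.75 for *Socs3*. For the other members it was -0.56 (*Socs4*), 0.53 (*Socs5*), 0.48 (*Socs6*) and -0.05 (*Socs7*). Between *Socs1* and *Socs3* it was 0.51, so these values do not split the family into 2 groups.

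Genes for the machinery around the SOCS box gave no call, in lists too short to read a 0 against the 7.10% of all genes that passed. The first list held 10 genes for ubiquitin ligases with elongins B and C and for their NEDD8 activation. It includes *Cul2* beside *Cul5*, the gene of the cullin that SOCS boxes recruit. Of these 10 genes, 0 passed an unadjusted p of 0.05 in edgeR's quasi-likelihood test. *Nedd8* (0.24), *Cul2* (-0.20, lower in every OGT-deficient sample), *Rnf7* (0.27) and *Ube2f* (-0.17) had the lowest p, with log2 fold changes in brackets. The 26 other proteins with a SOCS box had 12 genes tested, 0 of them past this threshold and a median log2 fold change of -0.04. Of these, *Spsb1* (-0.38), *Asb7* (-0.25), *Asb13* (-0.33) and *Spsb3* (-0.17) had the lowest p. Both counts were 0 in all 14 alternative settings. Among 19 other brakes on JAK-STAT and related signalling, 2 were higher at an unadjusted p under 0.05 and 0 lower, beside 3.09% and 4.01% of all genes. They were the phosphatase genes *Dusp2* (log2 fold change 0.45, standard error 0.14) and *Dusp5* (0.39, standard error 0.14), which act on MAP kinases. *Pias3*, an inhibitor of STAT3, had -0.47 (standard error 0.24, lower in every OGT-deficient sample) and did not pass. *Usp18*, which dampens interferon receptor signalling, had 0.73 (standard error 0.33) and did not pass either, but it ranged from 0.37 to 1.12 over the 14 alternative settings and passed in 7 of them.

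Of the receptor chains that SOCS proteins act on, 22 of 25 were tested, and at an unadjusted p under 0.05 in edgeR's quasi-likelihood test 3 were higher and 1 lower, beside 3.09% and 4.01% of all genes. Scaled to library size only, 2 of these chains passed. *Il2rb*, the signalling chain of the IL-2 receptor, had 1249, 1629 and 881 counts in the OGT-sufficient and 2184, 1918 and 2155 in the OGT-deficient replicates, without overlap, and was lowest in OGT-sufficient replicate 3 like *Cish*. Its log2 fold change was 0.68 (standard error 0.21). *Il6st*, which encodes gp130, had 0.38 (standard error 0.11) and *Il6ra* 0.33 (standard error 0.13). The IL-9 receptor gene *Il9r* was lower, with 39, 38 and 52 against 26, 16 and 25 counts and a log2 fold change of -0.99 (standard error 0.27). Among the JAK and STAT genes 1 of 11 passed, a share near the 7.10% of all genes. This was *Tyk2*, a kinase of interferon and IL-12 family receptors, which was lower (-0.56, standard error 0.12). The next by p were *Jak3* (-0.22), *Stat5b* (0.15) and *Stat5a* (0.19), and none of these passed.

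Other genes known as STAT5 targets were examined beside the family, in a list chosen with results of these data known. Of 17 genes, 16 were tested, and 4 were higher and 1 lower at an unadjusted p under 0.05 (edgeR's quasi-likelihood test), beside 3.09% and 4.01% of all genes. The median log2 fold change of the list was 0.17. The paper described many STAT5 targets as lower without OGT, in a set of genes that may differ from this list. *Myc*, the growth regulator, had 0.41 (standard error 0.13), the survival gene *Bcl2* 0.36 (0.12) and the kinase gene *Pim1* 0.36 (0.13). The survival gene *Mcl1* (0.30, standard error 0.11) was the fourth, named after its value was seen. The lower gene was *Gzmb*, which encodes the cytotoxic protease granzyme B, with 17, 32 and 21 against 11, 3 and 5 counts and a log2 fold change of -1.91 (standard error 0.48). Scaled to library size only, 2 genes of this list passed. None of the genes in these lists passed an FDR of 0.1 over all genes in this test, and at an unadjusted p under 0.05 they gave 12 calls in the 6 lists. These counts rest on few samples. With a sample left out, 1 gene of the other brakes passed without OGT-sufficient replicate 2, OGT-deficient replicate 1 or OGT-deficient replicate 2, and 4 passed without OGT-deficient replicate 3.

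**Figure D4:**
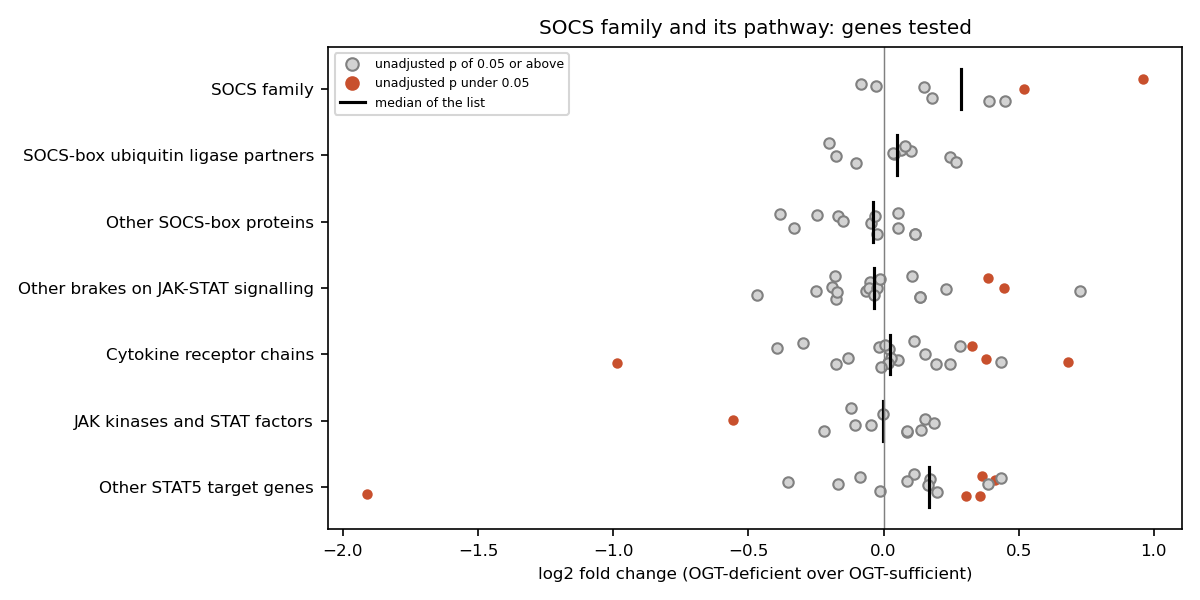
Log2 fold change (OGT-deficient over OGT-sufficient) of each gene tested in the SOCS family and in 6 lists of its pathway, with filled orange points at an unadjusted p under 0.05 and a bar at the median of each list. The family median is 0.29, and the medians of the 6 lists lie between -0.04 and 0.17.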

How the data were processed

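RNA of YFP-sorted Treg cells was sequenced as 2 groups of 3 samples. The authors trimmed paired-end reads (Trimmomatic 0.33), mapped them to mm10 (Bowtie2 2.2.4.0) and deposited whole numbers per gene and sample, used as raw counts. The methods of the paper name Cuffquant for the quantification, whereas the submitters' processing notes name featureCounts. Strand, annotation and the handling of reads shared between genes were not given in the sources used here. The deposited columns of the authors' own test (p-values, corrected p-values, fold changes) and of their means were not used.

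They were tested with edgeR 4.0.16 (R 4.3.3) by its two-sided quasi-likelihood test after TMM scaling and filterByExpr (minimum count 10), and p-values of all 10949 genes were adjusted together (Benjamini-Hochberg). Standard errors are the absolute log2 fold change divided by the root of F. DESeq2 1.42.0 and other settings were alternatives. Replicates of a group differed by a chi-square of 3.31 to 22.0 per degree of freedom, so no 2 replicates of a group were the same library. Total counts were 3375454 to 4103552, and a floor of 3 counts is 0.759 to 0.808 CPM. Intervals cover counting error only.

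The members and lists were chosen with earlier results of these data known. Named were *Ogt*, the 8 members, up to 4 genes of lowest p in each list, and the 3 genes most like *Cish*, *Socs1* and *Socs3* (log2 CPM, prior count 2). Positions and exon lengths are from GENCODE M21, promoters from RefSeq GRCm38.p6. A further list of pathway genes is not reported here.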

Additional observations from a re-analysis of the deposited data

How the results depend on the processing

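Of the members, 2 had an unadjusted p under 0.05 as reported, and 2 or 3 did in all 14 alternatives, with *Socs2* among them in each, *Cish* in 13, *Socs3* in 3 and *Socs1* in 1. *Socs2* passed an FDR of 0.1 with DESeq2 (log2 fold change 0.98, adjusted p = 0.0904), edgeR's exact test (0.96, adjusted p = 0.0082) and no low-count filter (1.005, adjusted p = 0.0091), and in none of the other 11. *Cish*, *Socs1*, *Socs3* and *Socs6* kept their sign in all 14. With a replicate left out, *Socs4* ranged from -0.18 to 0.0412, *Socs5* from -0.0039 to 0.37 and *Socs7* from -0.12 to 0.0896, and without a filter *Socs7* was at 0.0220, so these signs are not settled. Over all genes, 3 passed an FDR of 0.1 as reported. DESeq2 gave 38, the exact test 80, omitting the filter 131, the replicate block 0 (679 at an unadjusted p under 0.05), and leaving out a replicate 0 to 9. They were 0 without OGT-deficient replicate 2 or 3 and 9 without OGT-sufficient replicate 3. At an unadjusted p under 0.05 there were 777 genes, against 452 with DESeq2, 1208 without a filter and 462 to 888 with a replicate left out, the fewest without OGT-deficient replicate 2. The cause was not tested. Same-numbered samples had correlations of -0.28, 0.0073 and -0.12 of their deviations. With so few samples these values cannot show whether samples were paired. The reported fit did not pair them by replicate number, and with the block *Cish* and *Socs2* still had an unadjusted p under 0.05. Members had 31 to 377 counts per sample. With these counts and the spread between 3 samples per group, small changes of *Socs1* and *Socs6* were not detectable.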
